A study of Mus musculus with 46 samples.

Results

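Mammary tumors driven by the c-Myc transcription factor were compared with mammary tumors driven by H-Ras. The 9 arrays were taken by their titles, 4 of the MMTV-c-Myc and 5 of the MMTV-H-Ras model, out of 46 mRNA arrays in the series, which cover 8 genetically engineered mouse models and normal mammary gland. Both transgenes sit behind the long terminal repeat of mouse mammary tumor virus (MMTV) in female mice of the inbred strain FVB, so that strain and promoter were shared. Scan dates and batches are not in the sources used, so a batch that differed between the models could not be checked. Each array held total RNA of 1 tumor, the tumors were taken from individual mice and snap frozen, and no source used here gives the ages of the mice. The MMTV promoter is active in mammary epithelium and is not restricted to it: salivary gland and lymphoid cells are known sites of its activity. Levels in 5 normal glands of late-pregnant FVB mice and in MMTV-Her2/neu, MMTV-PymT and MMTV-Wnt1 tumors of the same strain are given beside the results as a description.

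c-Myc binds DNA as a dimer with Max at E-box sequences and is known for raising the genes of ribosome production, nucleotide synthesis and cell growth. H-Ras is a membrane-bound GTPase that passes receptor signals to the RAF, MEK and ERK kinases, and active ERK induces its own brakes, among them the Dusp phosphatases and the Spry proteins, together with Etv and AP-1 transcription factors. The pair is the textbook example of oncogenes that cooperate when they are expressed together.

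All values are log2 GC-RMA levels, and a difference is the mean of the c-Myc tumors minus the mean of the H-Ras tumors on that scale, so that 1 is a doubling and a negative value is a higher level in H-Ras tumors. A gene was called when its limma p-value, adjusted by the Benjamini-Hochberg method over all 9329 genes tested, was under 0.05. On this rule 378 genes were higher in c-Myc tumors, which is 4.05% of the genes tested, and 305 were higher in H-Ras tumors, which is 3.27%, or 7.32% in either direction. Values did not overlap between the models for 1178 genes, or 12.6% of those tested, with 7.34% higher in c-Myc tumors and 5.28% higher in H-Ras tumors, and 637 of the 683 called genes were among them. The differences called in H-Ras tumors reached farther: 42 genes lay at least 4 log2 units higher there, against 22 genes in c-Myc tumors, and the median over all genes tested was 0.05. Array medians lay between 6.48 and 7.35, arrays of the same model correlated at 0.865 to 0.917 among c-Myc and 0.833 to 0.957 among H-Ras tumors, and pairs across the models at 0.769 to 0.866. H-Ras 1 had the lowest array median and the lowest array weight, 0.37, and H-Ras 4 stood apart in its secretory genes, as given below.

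The number of calls depended on single tumors. Without c-Myc 3 the calls fell to 160 and 161, without H-Ras 2 to 163 and 136, without H-Ras 5 to 192 and 162, and without H-Ras 3 to 238 and 150, for c-Myc and H-Ras respectively. Leaving out any other tumor gave between 281 and 341 genes higher in c-Myc and between 229 and 380 higher in H-Ras. Of the 683 called genes, 263 were called in each of the 9 fits that left out 1 tumor, and 0 of the 683 changed direction in any of them. For the 637 called genes without overlap the direction could not change when 1 tumor was left out, so this 0 says little about stability. Calls that held in all 9 are named as such below.

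**Figure D1:**
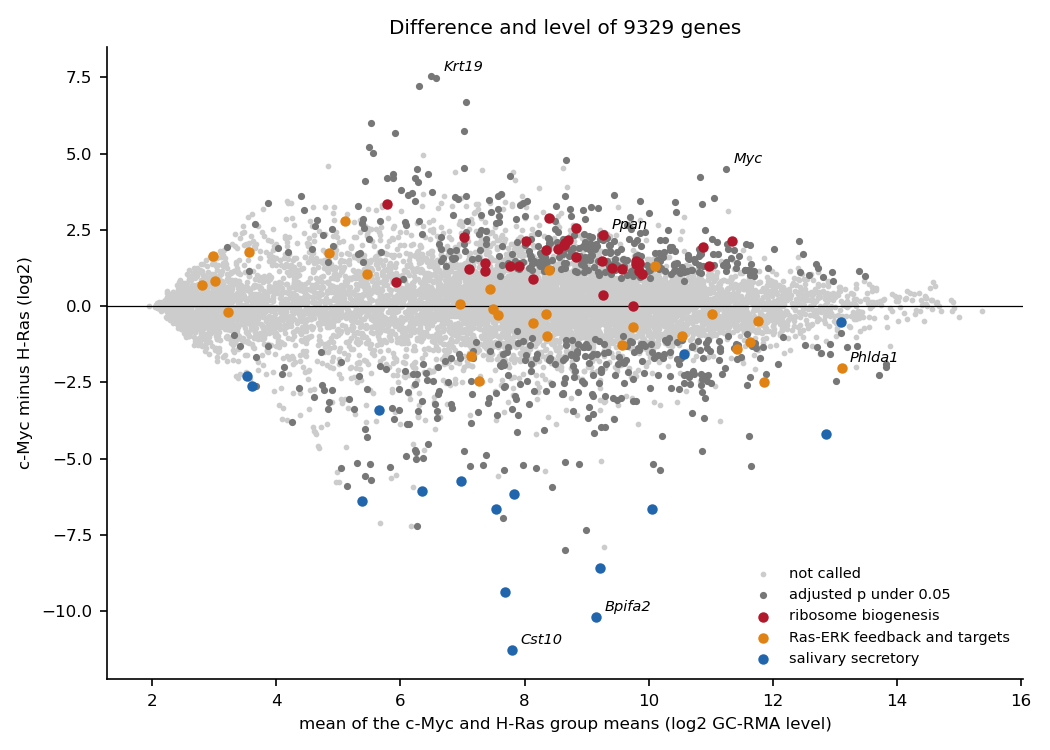
Difference between c-Myc and H-Ras tumors (y axis, log2) against the mean of the group means (x axis, log2 GC-RMA level) for 9329 genes; grey points were not called, dark points passed an adjusted p of 0.05, and colours mark 3 gene lists. The ribosome biogenesis genes lie at or above 0, the salivary secretory genes reach down to -11.28, and the Ras-ERK feedback genes lie on both sides.

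Myc itself separated the models. It was measured at 13.10, 13.57, 13.41 and 13.86 in c-Myc tumors 1 to 4, and at 8.71, 9.21, 9.46, 9.57 and 8.01 in H-Ras tumors 1 to 5. The difference was 4.49 (SE 0.36), or 22.5-fold, with an adjusted p of 0.000864 in the limma fit, and the call held in all 9 leave-one-out fits. The mean in normal gland was 9.09 ± 0.48 (SD, n = 5), and MMTV-Her2/neu and MMTV-PymT tumors averaged 9.0 and 9.37, near the H-Ras level, while MMTV-Wnt1 tumors averaged 10.46 ± 0.22 (SD, n = 4), all above the highest H-Ras tumor. A single probe set reports Myc, and transgene and endogenous transcripts cannot be told apart by it.

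The partners of Myc were not called in the comparison of the 9 tumors. Of 14 tested genes of the Myc-Max network, Myc was the only one called, beside 7.32% of all genes, and the median difference of the list was 0.11. Max, the obligate partner, lay between 5.79 and 6.55 in c-Myc tumors and between 5.86 and 6.89 in H-Ras tumors, a difference of -0.38 (SE 0.30) with an adjusted p of 0.473. Mxd4, which competes with Myc for Max, differed by -0.27 (SE 0.38). Mycn, the paralog used in neural tumors, lay between 2.26 and 3.18 in c-Myc tumors, and at 4.73 in H-Ras 1 but 2.40 to 2.51 in the other H-Ras tumors. The network genes with the largest differences short of the threshold were Mlxip at 1.72 (adjusted p = 0.0741) and Mnt at 1.59 (adjusted p = 0.116). Both were called with all 46 arrays in the fit (0.00251 and 0.0155) and with the 5 MMTV models and gland (0.002 and 0.00867), Mlxip also with array weights (0.0457) and after quantile normalization (0.048), and Mnt without c-Myc 4 (0.0233).

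Genes known as direct or classical Myc targets were called in c-Myc tumors only. Of 27 tested members 12 were called higher in c-Myc (4.05% of all genes were) and 0 higher in H-Ras, 26 had a positive difference, and the median was 1.32. The count fell to 6 without H-Ras 2 or c-Myc 3 and to 7 without H-Ras 5. Fbl, the methyltransferase of the box C/D nucleolar particles, stood at 12.34, 12.07, 12.90 and 12.29 in c-Myc tumors and at 9.94, 10.15, 11.12, 10.23 and 9.90 in H-Ras tumors, a difference of 2.13 (SE 0.31, adjusted p = 0.00747). Srm, spermidine synthase, stood at 11.38, 12.27, 12.21 and 12.70 against 9.97, 9.63, 10.57, 9.76 and 10.34. For both genes every c-Myc tumor lay above every H-Ras tumor. Nop56, a core protein of the same particles as Fbl, differed by 1.94, Tfrc, the transferrin receptor, by 1.89, the mitochondrial chaperonin Hspd1 by 1.7 and the nucleolar repressor Mybbp1a by 1.33. These 6 calls held in all 9 leave-one-out fits. The other probe sets of Tfrc differed by 1.41 and 0.05 and were not called.

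The best known Myc targets were among the less stable calls. Odc1, the first enzyme of polyamine synthesis, stood at 12.45, 11.93, 12.01 and 12.21 in c-Myc tumors and at 10.65, 9.34, 10.81, 8.15 and 9.31 in H-Ras tumors, a difference of 2.50 (SE 0.53, adjusted p = 0.0264). The models did not overlap, and normal gland averaged 11.82, close to the c-Myc level. Its call was lost without H-Ras 2, H-Ras 5, c-Myc 1, c-Myc 3 or c-Myc 4, with an adjusted p of at most 0.0679. Cad, which carries the first steps of pyrimidine synthesis, differed by 2.85 (adjusted p = 0.0204) and was lost without H-Ras 2 or c-Myc 3 (at most 0.0651). The kinase Nme1 at 1.65, the nucleolar proteins Gnl3 at 1.32 and Npm1 at 0.98, and the chaperonin partner Hspe1 at 1.26 each failed in 5 to 7 of the 9 fits, always including those without H-Ras 2, H-Ras 5 or c-Myc 3. A second probe set of Nme1 differed by 0.39 and was not called. Ncl, nucleolin, was not called: it lay between 13.60 and 14.27 in c-Myc tumors and between 12.56 and 13.67 in H-Ras tumors (difference 0.83, adjusted p = 0.112). Limma called Ncl with all 46 arrays in the fit (adjusted p = 0.0288) and with the 5 MMTV models and gland (0.0189).

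The apparatus that builds ribosomes gave the highest share of calls among the growth lists. Of 32 tested members 17 were called higher in c-Myc tumors (4.05% of all genes were) and 0 higher in H-Ras tumors. All 32 differences were positive, and the median was 1.45. Fbl, Nop56 and Gnl3 are also members of the Myc target list. Ppan, a factor of large-subunit assembly, stood at 10.15, 10.56, 10.32 and 10.69 against 8.70, 8.05, 7.93, 7.89 and 7.91 (difference 2.33, SE 0.25, adjusted p = 0.00194). Polr1e, a subunit of RNA polymerase I, which transcribes the ribosomal RNA genes, stood at 8.08, 7.68, 8.25 and 8.58 against 5.88, 6.16, 5.55, 5.99 and 5.91 (difference 2.25, SE 0.25, adjusted p = 0.002). Both kept every c-Myc tumor clear of every H-Ras tumor. With Fbl and Nop56 they were among 10 members called in all 9 leave-one-out fits, the others being Rrp1b at 2.17, Wdr12 at 2.07, Heatr1 at 1.99, Noc2l at 1.87, Nip7 at 1.48 and Tsr1 at 1.32. Second probe sets of Wdr12 and Nip7 differed by 1.43 and 0.57 and were not called. With the mean of the probe sets Nip7 lost its limma call (adjusted p = 0.125). Utp20, Wdr43, Nop2 and Gnl3, at 1.61 to 1.32, complete the called members and lost the call in some fits. The members with the largest differences were less even: Rrp12 differed by 3.35, with H-Ras 3 at 6.59 while the other H-Ras tumors lay between 3.23 and 3.90, Nop16 by 2.88 and Nolc1 by 2.56, and each of these 3 lost its call in 6 to 8 of the fits (adjusted p up to 0.119). The count of called members ran from 10, without H-Ras 2 or H-Ras 5, to 17. The level of the list, the mean over its members, lay between 9.11 and 9.85 in c-Myc tumors and between 7.69 and 8.39 in H-Ras tumors.

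Ribosomal protein genes were counted as families set up by symbol after the values were seen. They held 2 called of 46 cytosolic ribosomal protein genes, Rpl12 and Rps25, and 7 of 74 mitochondrial ribosomal protein genes, all higher in c-Myc tumors, with median differences of 0.18 and 0.47, beside 4.05% called higher in c-Myc tumors over all genes. The difference between these families and the assembly factors was not tested. Of 18 aminoacyl-tRNA synthetases, Wars at 1.28 and Kars at 1.19 were called, and both calls were lost in 5 or more of the leave-one-out fits (adjusted p up to 0.0712 and 0.099).

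Nucleotide synthesis genes were also called in c-Myc tumors only. Of 16 tested members 7 were called higher in c-Myc tumors (4.05% of all genes were) and 0 higher in H-Ras tumors. All 16 differences were positive and the median was 1.25. Gart, which carries several steps of purine synthesis, stood at 10.37, 9.73, 11.09 and 10.87 in c-Myc tumors and at 5.5, 7.85, 7.67, 7.78 and 8.11 in H-Ras tumors, a difference of 3.13 (SE 0.56, adjusted p = 0.0132). It was the only member called in all 9 leave-one-out fits, H-Ras 1 being far below the other H-Ras tumors, and its other probe sets differed by 1.37 and 1.00 without being called. Cad, Prps1 at 2.44, Ctps at 2.19, Ppat at 1.41, Umps at 1.25 and Adsl at 1.03 each lost the call in some fits, and the count of called members fell to 1 without H-Ras 2 or c-Myc 3. Other probe sets of Umps differed by 0.72 and 0.32 and were not called. In the list of serine, one-carbon and polyamine synthesis 4 of 13 members were called, Odc1, Srm, the mitochondrial enzyme Shmt2 at 1.79 and the trifunctional folate enzyme Mthfd1 at 1.64. Other probe sets of Mthfd1 differed by 4.63, which was called, and by 0.46, which was not. Shmt2 and Mthfd1 lost the call in 3 and 6 of the leave-one-out fits, and the count fell to 1 without H-Ras 2, H-Ras 5 or c-Myc 3. Of 12 genes of glutamine use and amino acid transport only the glutamine carrier Slc1a5 was called, at 2.47 (adjusted p = 0.046), and the call was lost whichever tumor was left out except H-Ras 3.

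Promoter windows were read for the E-box of Myc and Max, since the calls above include its textbook targets. The windows are 300 bases long and run from upstream of each RefSeq start into the transcript (GRCm38.p6), and CACGTG, which reads the same on both strands, was searched in the windows of 7523 of the 9329 tested genes. It was found for 18.2% of the genes higher in c-Myc tumors (57 of 314), for 14.3% of those higher in H-Ras tumors (35 of 245) and for 11.7% of all tested genes (882), and in 7.15% of all 32851 windows of the table. Among genes with a window it was found for 7 of 20 Myc targets, 7 of 27 ribosome biogenesis genes and 2 of 15 nucleotide synthesis genes. Of these genes with an E-box, Ldha, Eif4e, Eif4a1, Cdk4, Pes1, Imp4, Pno1, Paics and Tyms were not called. A link between the E-box and the calls was not tested. A gene with several starts has several windows and so more chances to match. Stretches with the E-box in capitals, 5′ to 3′ on the strand of the gene, are shown for called members of these lists, since they hold the letters behind those counts. Nme1 (chr11:93968245-93968330, minus strand), Hspd1 (chr1:55088278-55088363, minus strand) and Nop2 (chr6:125131783-125131868, plus strand) have it at positions -18, -80 and -60 from the start, and Wdr43 (chr17:71616192-71616264, plus strand), Tsr1 (chr11:74898064-74898129, plus strand) and Mybbp1a (chr11:72441327-72441376, plus strand) have it at 18, 25 and 41.
Nme1: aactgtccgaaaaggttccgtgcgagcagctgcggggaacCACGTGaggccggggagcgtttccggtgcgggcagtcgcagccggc
Hspd1: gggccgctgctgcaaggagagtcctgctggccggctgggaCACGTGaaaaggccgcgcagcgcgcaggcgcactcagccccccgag
Nop2: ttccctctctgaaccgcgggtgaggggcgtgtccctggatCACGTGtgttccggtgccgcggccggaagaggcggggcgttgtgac
Wdr43: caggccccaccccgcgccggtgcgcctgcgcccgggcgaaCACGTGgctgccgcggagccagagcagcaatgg
Tsr1: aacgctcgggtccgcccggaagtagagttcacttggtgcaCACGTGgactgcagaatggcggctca
Mybbp1a: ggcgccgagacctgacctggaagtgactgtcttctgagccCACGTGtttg

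The differences of these 6 genes were 1.65, 1.7, 1.38, 1.40, 1.32 and 1.33 in the order shown. Nop2 and Wdr43 are a methyltransferase and a processing factor of ribosomal RNA, and both calls were lost without H-Ras 2 or H-Ras 5, Nop2 also without H-Ras 4, c-Myc 2, c-Myc 3 or c-Myc 4. The AP-1 site, TGAGTCA or its reverse complement TGACTCA, was found for 4.14% of genes higher in c-Myc, 5.71% of genes higher in H-Ras and 5.24% of all tested genes. The ETS site ACCGGAAGT, searched on both strands, was found for 2.23%, 2.04% and 2.29% respectively. In the list of Ras-ERK feedback and target genes 6 of 20 had an AP-1 site, namely Plaur, Emp1, Lif, Mmp3, Mmp10 and Mmp13, none of which was called.

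The Ras-ERK lists were called at about the rate of all genes, 3.27% of which were higher in H-Ras tumors. Of 28 tested feedback genes and targets Phlda1 was the only one called, 11 differences were positive and the median was -0.26. Phlda1, a growth-inhibitory protein induced by ERK, stood at 12.70, 11.13, 12.41 and 12.15 in c-Myc tumors and at 14.00, 14.25, 14.26, 14.10 and 13.99 in H-Ras tumors. The 5 H-Ras values were close together and all lay above the c-Myc values, the difference was -2.02 (SE 0.32, adjusted p = 0.00917), and the call held in all 9 leave-one-out fits. Among 23 components of the cascade itself, Sos2, an exchange factor that loads Ras with GTP, was the only one called, at 7.74, 7.42, 8.06 and 8.52 against 9.42, 9.58, 9.36, 9.86 and 9.49 (difference -1.60, adjusted p = 0.0103), and this call too held in all 9. Without H-Ras 1 the cascade list had 4 called members, all higher in H-Ras tumors, and it had 2 after quantile normalization and 3 with arrays centred on their median. Normal gland averaged 9.81 for Sos2, near the H-Ras level, and 11.58 for Phlda1, below both models.

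Other ERK outputs were uneven among c-Myc tumors. Dusp6, the phosphatase that removes the activating phosphates of ERK, stood at 12.43, 6.96, 12.81 and 10.27 in c-Myc tumors and at 12.51, 13.34, 13.29, 13.35 and 13.06 in H-Ras tumors. H-Ras tumors were uniformly high, c-Myc 1 and 3 lay at their level and c-Myc 2 and 4 well below. The difference of -2.49 (SE 1.06) had an adjusted p of 0.187 in the limma fit of the 9 tumors. Dusp6 was called with all 46 arrays in the fit (adjusted p = 0.0064) and with the 5 MMTV models and gland (0.0102). The EGF receptor ligand Tgfa stood at 7.71, 3.06, 9.28 and 4.05 against 7.97, 8.85, 7.90, 9.25 and 8.48, with the same tumors low. Spry2, a receptor-level inhibitor, stood at 10.18, 7.26, 9.77 and 8.58 against 9.47 to 10.85. Etv4 differed by -0.31 and Etv5 by -1.62, with adjusted p-values of 0.859 and 0.409. Fosl1, an AP-1 component, was at 6.15 and 4.79 in c-Myc 1 and 3 but between 2.12 and 2.22 in the other 7 tumors, and Ereg, another EGF receptor ligand, was between 2.47 and 5.33 in all 9. Without c-Myc 2 the median of the list was 0.22, and without c-Myc 4 it was 0.10, so its sign rested on these tumors. The level of the list lay at 9.02, 6.49, 8.83 and 6.67 in c-Myc tumors 1 to 4 and between 7.54 and 8.17 in H-Ras tumors. Of 21 AP-1 and immediate early genes the nuclear receptor Nr4a1 was called, at -2.39 (adjusted p = 0.0389), and of 12 ErbB receptors and ligands Egf was, at -2.75 (adjusted p = 0.0464). Both calls were lost whichever tumor was left out except c-Myc 2. Beside these single calls, 3.27% of all genes were called higher in H-Ras tumors. In the ErbB list 11 differences were negative and 1 was positive.

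**Figure D2:**
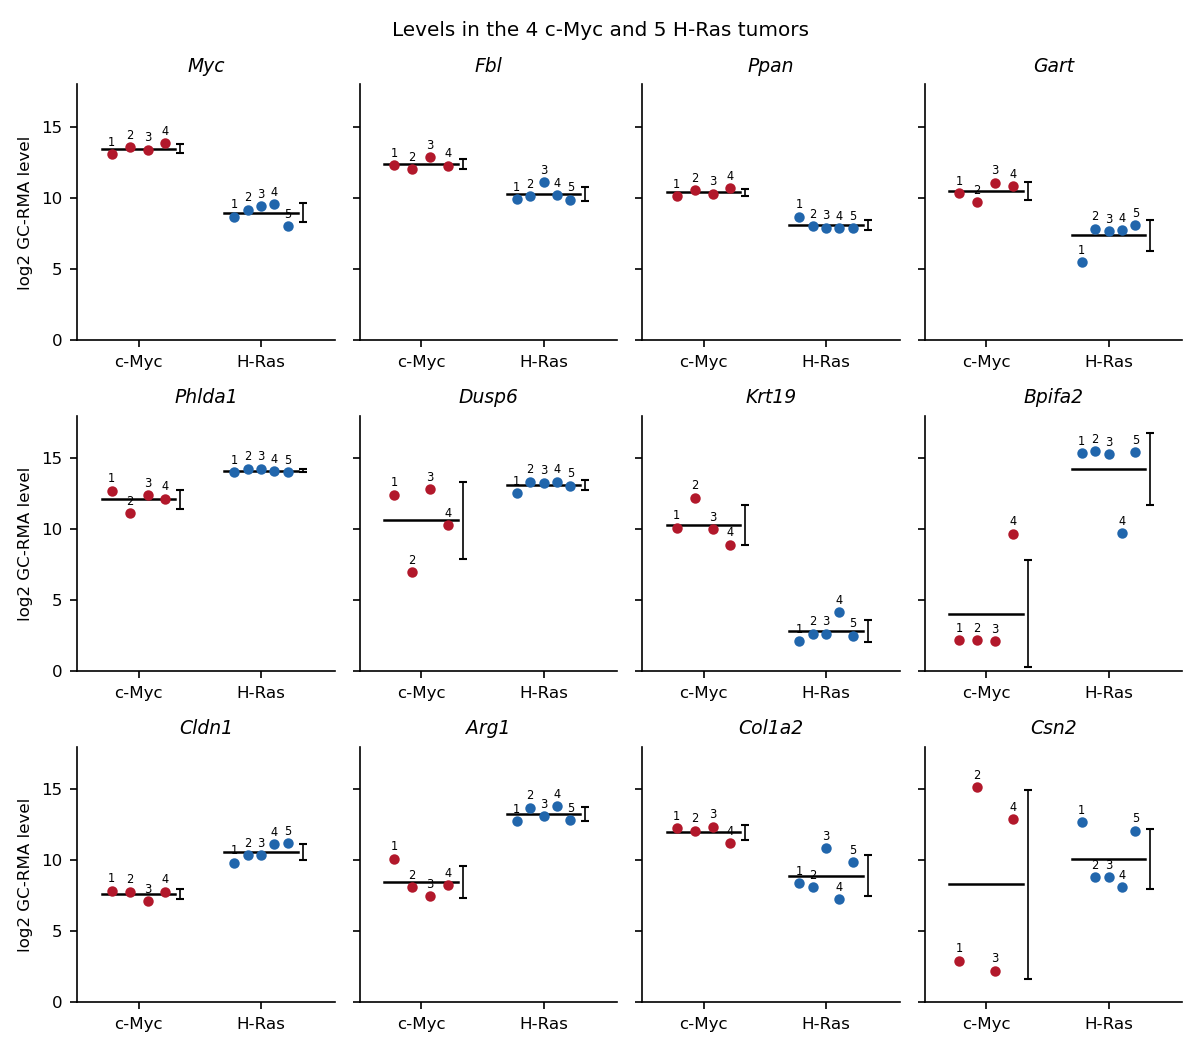
log2 GC-RMA levels of 12 genes (y axis) in each tumor, with c-Myc tumors in red and H-Ras tumors in blue; numbers are tumor numbers, lines are group means and bars beside them are 1 SD. Myc lies between 13.10 and 13.86 in c-Myc and between 8.01 and 9.57 in H-Ras tumors, Dusp6 is low in c-Myc 2 and 4, Bpifa2 is at 9.69 in c-Myc 4 and 9.73 in H-Ras 4, and Csn2 is spread over 12.9 log2 units among c-Myc tumors.

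Cell cycle genes were read in 3 lists, against 4.05% of all genes called higher in c-Myc tumors. Of 28 DNA replication genes 4 were called higher in c-Myc tumors and 26 differences were positive, with a median of 1.25. The origin licensing factor Cdt1 stood at 10.54, 11.25, 11.11 and 11.20 against 8.69, 10.18, 9.49, 8.80 and 9.28 (difference 1.74, adjusted p = 0.0204), and its call was lost without H-Ras 5 or c-Myc 3 (at most 0.0601). The helicase subunit Mcm7 at 1.38, the polymerase subunit Pold1 at 1.37 and the clamp loader Rfc1 at 1.26 were lost more often, and 0 members were called without H-Ras 5 or c-Myc 3. Other probe sets of Rfc1 differed by 1.45, which was called, and by 0.16, which was not. Of 29 mitosis genes Birc5, survivin, was called at 2.26 (adjusted p = 0.036), 27 differences were positive and the median was 1.14. The level of the mitosis list was 7.64, 8.21, 9.68 and 9.69 in c-Myc tumors and 6.67, 8.36, 7.91, 7.89 and 7.93 in H-Ras tumors: c-Myc 3 and 4 lay above all H-Ras tumors, c-Myc 1 and 2 did not, and H-Ras 1 was lowest. Without H-Ras 1 the median was 0.82, and without c-Myc 4 it was 0.68. Birc5 lost its call without H-Ras 2, 3, 4 or 5 or c-Myc 3 or 4.

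G1 regulators showed 1 call in 19, the kinase subunit Cks2 at 1.91 (adjusted p = 0.0371, lost in 7 of the leave-one-out fits). A second probe set of Cks2 differed by 1.3 and was not called. Ccnd1, cyclin D1, stood at 12.62, 8.72, 12.43 and 9.78 in c-Myc tumors and between 10.51 and 11.68 in H-Ras tumors, so that H-Ras tumors lay between the low and the high c-Myc tumors (difference -0.25, adjusted p = 0.875). Ccnd2 stood at 9.79, 7.09, 11.91 and 4.57 against 4.59 to 5.35 (difference 3.39, SE 1.25, adjusted p = 0.138). The inhibitor genes Cdkn1a and Cdkn2a were highest in c-Myc 1 and 3: Cdkn1a at 12.71 and 11.81, against 8.07 and 6.83 in c-Myc 2 and 4 and 7.78 to 9.49 in H-Ras tumors, and Cdkn2a at 5.95 and 4.10 against 2.13 to 2.42 in all other tumors. Neither was called. Among 21 p53 targets 1 was called in each direction, beside 4.05% of all genes called higher in c-Myc and 3.27% higher in H-Ras tumors. The ribonucleotide reductase subunit Rrm2b stood at 7.25, 6.11, 7.12 and 7.68 against 9.97, 8.96, 9.07, 9.15 and 8.61 (difference -2.11, adjusted p = 0.0138, held in all 9 fits), and the nuclease Aen differed by 2.41 (adjusted p = 0.0455, lost whichever tumor was left out except c-Myc 4). A second probe set of Aen differed by 0.96 and was not called. Of 21 Bcl2 family and caspase genes Casp1, the inflammasome protease, was called at -2.46 (adjusted p = 0.0498), with H-Ras 4 at 12.27 and the other H-Ras tumors at 9.52 to 9.73, and it was lost whichever tumor was left out except H-Ras 4.

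**Figure D3:**
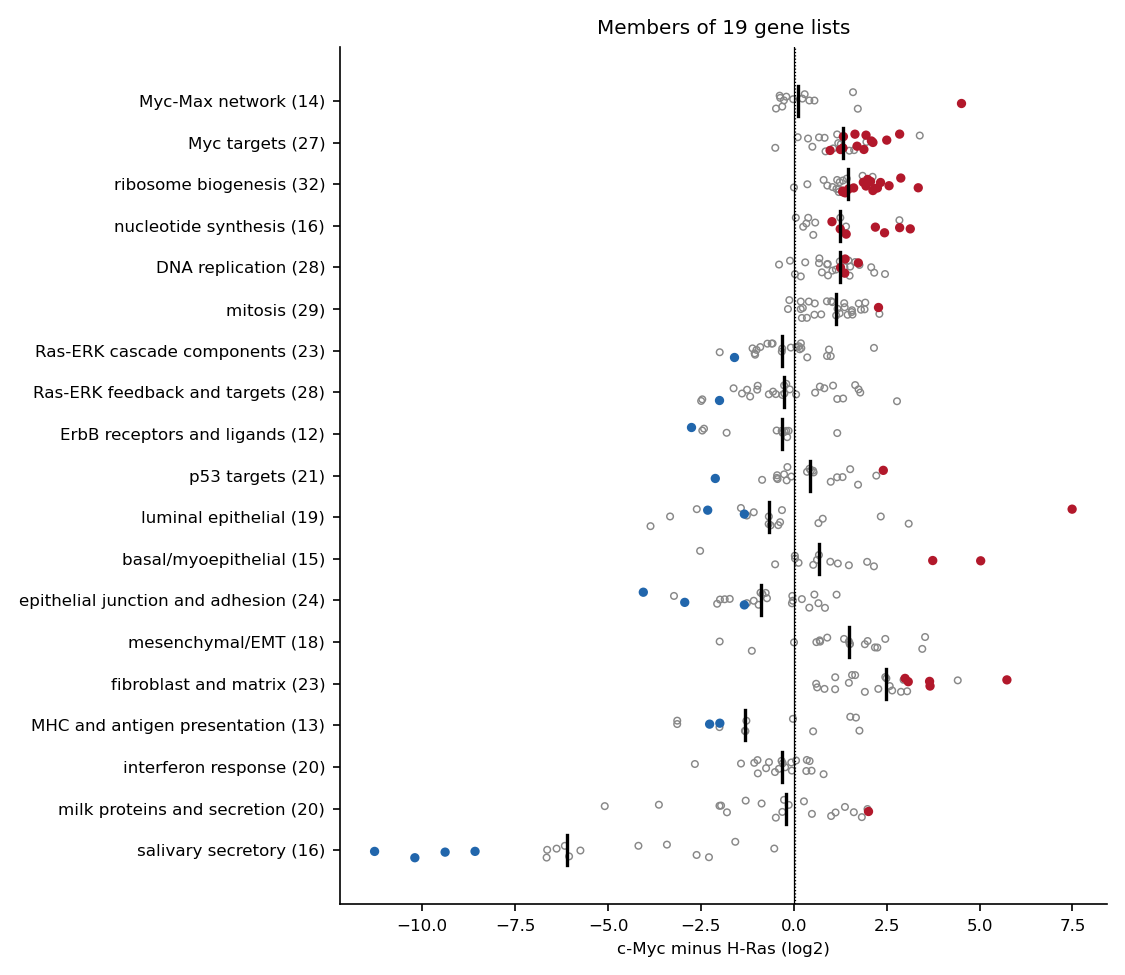
Differences between c-Myc and H-Ras tumors (x axis, log2) of the members of 19 gene lists, with the number tested in brackets; filled points were called (red higher in c-Myc, blue higher in H-Ras), open points were not, black bars are list medians and the dotted line is the median of all genes. Ribosome biogenesis has a median of 1.45 with 17 called members, the Ras-ERK feedback list a median of -0.26 with 1, and the salivary secretory list a median of -6.11 with 4.

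The largest differences of the comparison were salivary secretory genes in H-Ras tumors. Of 16 tested members of that list 4 were called higher in H-Ras tumors (3.27% of all genes were), 0 higher in c-Myc tumors, and the median was -6.11. Cst10, a cystatin, stood at 2.15, 2.17, 2.09 and 2.22 in c-Myc tumors and at 15.37, 14.85, 15.34, 8.14 and 13.50 in H-Ras tumors (difference -11.28, SE 1.37, adjusted p = 0.00314). Bpifa2, the parotid secretory protein, stood at 2.18, 2.19, 2.15 and 9.69 against 15.34, 15.47, 15.28, 9.73 and 15.43 (difference -10.20, SE 1.84, adjusted p = 0.0138). Prpmp5, a proline-rich protein, differed by -9.38, and Dcpp1, a demilune cell secretory protein with near-identical copies that the probes may not tell apart, by -8.58. H-Ras 4 was the lowest H-Ras tumor for all 4 genes, and Bpifa2 in c-Myc 4 was close to it. The calls of Cst10, Prpmp5 and Dcpp1 held in all 9 leave-one-out fits, that of Bpifa2 was lost without c-Myc 3 (adjusted p = 0.0511), and without H-Ras 4 the list had 6 called members. GC-RMA places unexpressed genes at about 2, so these folds start from that floor.

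Secretory genes also varied among H-Ras tumors. Chia1, an acidic chitinase, stood at 14.54, 12.80, 11.74, 2.17 and 4.87 in H-Ras tumors 1 to 5 and between 2.09 and 2.15 in c-Myc tumors, and Smr3a stood at 10.05, 13.97, 6.86, 2.19 and 9.84. Mucl2 and Mucl1, mucin-like genes, peaked in H-Ras 5 at 15.48 and 14.49 and were at 2.93 and 2.48 in H-Ras 4. These 4 genes, with Lalba, had the widest ranges among H-Ras tumors and none of the 5 was called. The list level was 11.90, 11.75, 11.62, 7.37 and 11.46 in H-Ras tumors 1 to 5, and 4.15, 6.43, 4.03 and 5.75 in c-Myc tumors. Other members were high in both models: Aqp5, a water channel, lay between 11.84 and 13.97 in c-Myc and between 12.54 and 14.45 in H-Ras tumors, and Bhlha15, a transcription factor of secretory cells, differed by -1.58 with an adjusted p of 0.219. The list level of 19 luminal epithelial markers lay between 8.86 and 10.13 in c-Myc and between 9.43 and 10.10 in H-Ras tumors. Of these markers 1 was called higher in c-Myc and 2 higher in H-Ras tumors, beside 4.05% and 3.27% of all genes. Whether these markers separate mammary from salivary epithelium was not tested. Krt8 and Krt18 lay at 12.75 or above in all 9 tumors (differences -0.37 and -0.67, not called), whereas Krt19 was at 2.13 to 4.16 in H-Ras tumors. Csn3, a casein, lay between 13.80 and 15.43, while Csn2, Wap and Lalba were at 2.10 to 3.92 in c-Myc 1 and 3. In bulk tissue fewer cells of a type and less RNA per cell cannot be told apart, and whether salivary tissue was part of any sample was not tested.

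Other genes with large differences in H-Ras tumors have varied roles. Cldn10, an ion-selective claudin, stood at 4.18, 8.24, 4.65 and 4.24 against 11.74, 12.06, 13.57, 12.57 and 13.33 (difference -7.32, adjusted p = 0.00249), so that H-Ras 4 was as high as its model mates here. Lrrc26, an auxiliary subunit of potassium channels in secretory epithelia, stood at 3.86, 5.09, 3.94 and 3.82 against 10.51, 10.70, 11.67, 10.48 and 12.28 (difference -6.95, SE 0.46, adjusted p = 0.000491). Pigr, which carries IgA across epithelia, differed by -7.99 with c-Myc 2, at 9.82, above H-Ras 4, at 9.31, and its call was lost in 6 of the leave-one-out fits (adjusted p up to 0.0682). The difference was -7.21 for Oit1, -5.93 for Palmd, -5.88 for the adenylyl cyclase Adcy8, -5.69 for Ugt8a, which makes galactosylceramide, and -5.39 for Ggh, a hydrolase of folate polyglutamates. All 5 calls held in all 9 fits. Ggh lay between 7.17 and 8.01 in c-Myc tumors and between 11.75 and 14.18 in H-Ras tumors. Gdf5, a BMP family ligand, differed by -5.31 but was at 2.52 in H-Ras 4, at the c-Myc level, and its call (adjusted p = 0.0455) was lost whichever tumor was left out except H-Ras 4. In MMTV-Her2/neu tumors the means of Cldn10 and Lrrc26 were 11.72 and 9.48, and those of Cst10 and Oit1 were 2.11 and 2.45. High salivary genes were not limited to the H-Ras model: the highest MMTV-PymT and MMTV-Wnt1 tumors reached 14.17 and 12.41 for Cst10, 14.33 and 14.58 for Bpifa2 and 14.48 and 14.22 for Chia1, with model means of 4.11 and 4.69, 5.01 and 5.29, and 4.18 and 5.14.

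The largest differences in c-Myc tumors included cytokine, growth factor and keratin genes. Bex1, a small protein of neural tissues, stood at 11.09, 8.87, 8.41 and 12.68 in c-Myc tumors and between 2.56 and 2.94 in H-Ras tumors (difference 7.55, SE 0.79, adjusted p = 0.00191). Il17b, an interleukin of the IL-17 family, stood at 10.50, 8.62, 11.40 and 9.12 against 2.64 to 2.78 (difference 7.21, SE 0.52, adjusted p = 0.000491). H-Ras tumors were at the floor for both genes, and normal gland averaged 5.56 and 7.12. Igfbp2, which binds insulin-like growth factors, differed by 6.69. It was the only one called of 13 genes of the IGF axis, beside 7.32% of all genes called in either direction. Prtn3, a serine protease of neutrophil granules, differed by 6.01 while the level of 6 neutrophil markers lay at 3.67 to 6.56 in c-Myc and 3.39 to 4.74 in H-Ras tumors. Ccnb1ip1, a ubiquitin ligase, differed by 5.69, with H-Ras 1 at 6.02 and the other H-Ras tumors at 2.21 to 2.37.

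Metabolic genes were among them as well. Slc16a1, the lactate and pyruvate carrier MCT1, stood at 10.20, 10.40, 11.95 and 11.71 in c-Myc tumors and at 6.91, 5.97, 5.97, 7.01 and 5.48 in H-Ras tumors (difference 4.79, SE 0.49, adjusted p = 0.00168), and normal gland averaged 12.53. Prodh, the first enzyme of proline breakdown, lay between 8.16 and 8.80 against 3.57 to 4.77 (difference 4.50, SE 0.31, adjusted p = 0.000491). Angptl4, an inhibitor of lipoprotein lipase, differed by 4.51, although a second probe set differed by -0.15 and was not called. All of the genes of this and the preceding paragraph, Bex1, Il17b, Igfbp2, Prtn3, Ccnb1ip1, Slc16a1, Prodh and Angptl4, were called in all 9 leave-one-out fits. Slc6a15, a carrier of neutral amino acids, differed by 5.22 but was at 3.92 in c-Myc 2, and its call was lost whichever tumor was left out except c-Myc 2 (adjusted p up to 0.0876). Gsto1, a glutathione transferase, was higher in c-Myc tumors by 3.45, and by 3.24 to 3.89 in the leave-one-out fits, all called, and Gstm2 was higher in H-Ras tumors by 2.71 on the log2 scale (lost without H-Ras 2, c-Myc 1 or c-Myc 3). Of 26 glycolysis and hypoxia genes, 34 oxidative phosphorylation genes and 23 genes of lipid and sterol synthesis 0 were called by limma, beside 7.32% of all genes. At that share few calls would fall in lists of this size, so the 0 says little. At an unadjusted p under 0.05 these lists had 5, 2 and 5 members.

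Of 15 keratin genes, a family looked at after the values were seen, 3 were called, all higher in c-Myc tumors. Over all genes 4.05% were called higher in c-Myc tumors and 3.27% higher in H-Ras tumors. Krt19, a simple-epithelial keratin, stood at 10.11, 12.23, 10 and 8.91 in c-Myc tumors and at 2.13, 2.67, 2.65, 4.16 and 2.51 in H-Ras tumors (difference 7.49, SE 0.66, adjusted p = 0.00138). Krt14, a basal keratin, stood at 6.73, 10.89, 7.80 and 6.90 against 3.04 to 3.06 (difference 5.03, adjusted p = 0.00825). H-Ras tumors were near the floor for both, whereas normal gland averaged 10.90 and 9.44. Other probe sets of Krt14 differed by 0.04 and 3.16 and were not called, and its basal partner Krt5 was at 9.09 in c-Myc 2 and between 2.94 and 6.87 in the other 8 tumors (difference 0.62, adjusted p = 0.804). Of 15 basal and myoepithelial markers 2 were called, Krt14 and the smooth muscle protein Tagln, at 3.74 (lost without H-Ras 2, H-Ras 5, c-Myc 1, c-Myc 2 or c-Myc 3), and Krt79, not a member of the list, differed by 4.32. Kit, the receptor kinase of luminal progenitors, was higher in H-Ras tumors, at 11.30, 11.33, 12.36, 11.91 and 12.15 against 9.56, 8.21, 10.02 and 10.19 (difference -2.32, adjusted p = 0.0176, held in all 9 leave-one-out fits but lost with all 46 arrays in the fit, at 0.159, and with the 5 MMTV models and gland, at 0.0541). Elf5, the alveolar transcription factor, stood at 10.08, 12.84, 9.92 and 11.36 in c-Myc tumors and between 12.09 and 12.82 in H-Ras tumors (difference -1.42, adjusted p = 0.162). A second probe set differed by -4.46, with an adjusted p of 0.0418 in a separate limma fit of all single-gene probe sets. Of 18 alveolar progenitor genes Id2 at -1.89, Socs2 at -2.22 and Kit were higher in H-Ras tumors and Mfge8 at 2.0 in c-Myc tumors, and the calls of Socs2 and Mfge8 were lost in 6 and 8 of the fits. Of 8 hormone-sensing genes Socs2 and, in c-Myc tumors, the prostaglandin synthase Ptgs2 at 2.51 were called, the latter lost in 7 fits and at 0.45, not called, by a second probe set.

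Junction genes were higher in H-Ras tumors where they were called. Of 24 members 3 were called higher in H-Ras tumors (3.27% of all genes were) and 0 in c-Myc tumors, and the median was -0.87. Cldn1, a tight junction claudin, stood at 7.87, 7.80, 7.12 and 7.79 against 9.83, 10.35, 10.37, 11.11 and 11.22 (difference -2.94, SE 0.34, adjusted p = 0.00249), and the desmosomal cadherin Dsc2 differed by -4.05 (adjusted p = 0.012). Both held in all 9 fits, whereas Epcam, at -1.33, overlapped between the models and was lost in 7 fits. In the limma fit of all 46 arrays Cldn1 and Epcam lost the call (adjusted p = 0.0976 and 0.567). Epcam also lost it with the 5 MMTV models and gland (0.465). Cdh1, E-cadherin, lay between 11.37 and 12.24 in c-Myc and between 11.85 and 13.12 in H-Ras tumors and was not called (difference -0.76, adjusted p = 0.182). The connexins went both ways: Gja1, connexin 43, stood at 13.39, 12.41, 13.86 and 12.09 against 9.02, 8.71, 8.25, 8.04 and 9.47 (difference 4.24, SE 0.45, adjusted p = 0.00192), while Gjb1, connexin 32, lay between 2.47 and 2.98 against 6.92 to 8.74 (difference -5.15, SE 0.36, adjusted p = 0.000491) and Gjb2, connexin 26, differed by -5.38 with c-Myc 2 at 9.27. The calls of Gja1 and Gjb1 held in all 9 fits, and that of Gjb2 was lost in 7. Connexins were looked at as a family after the values were seen. Vim, vimentin, lay between 11.49 and 12.84 against 10.81 to 12.11 (difference 0.70, adjusted p = 0.275), and of 18 mesenchymal genes limma called 0 (6 at an unadjusted p under 0.05), with 16 positive differences and a median of 1.49.

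Matrix genes were called in c-Myc tumors, although no call was stable. Of 23 fibroblast and matrix markers 5 were called higher there (4.05% of all genes were) and 0 in H-Ras tumors. All 23 differences were positive, and the median was 2.49. Col1a2, a chain of type I collagen, stood at 12.27, 12.07, 12.36 and 11.22 in c-Myc tumors and at 8.38, 8.12, 10.86, 7.25 and 9.88 in H-Ras tumors (difference 3.08, SE 0.70, adjusted p = 0.0331). Tnc, tenascin C, stood at 12.27, 9.99, 9.81 and 7.48 against 2.80, 4.47, 7.14, 2.80 and 3.55 (difference 5.73, SE 1.12, adjusted p = 0.0197). H-Ras 3 was the highest H-Ras tumor for both and c-Myc 4 the lowest c-Myc tumor, with no overlap. Col1a1 at 3.65, Col6a2 at 3.67 and Col5a1 at 2.99 were also called. All 5 calls were lost without c-Myc 3 or without H-Ras 2, where the list had 0 called members, and without c-Myc 4 it had 8. The list level was 9.73, 9.50, 11.10 and 7.83 in c-Myc tumors and 5.87, 6.72, 8.41, 6.58 and 7.99 in H-Ras tumors, so that c-Myc 4 lay below H-Ras 3 and 5. Endothelial markers had 1 called of 17, Egfl7, named here after its value was seen, with list levels of 4.25 to 6.17 and 4.55 to 5.26. The ribosome biogenesis list, in contrast, was high in c-Myc 4, at 9.85, where the matrix list was lowest.

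Immune genes differed at a few places, beside 3.27% of all genes called higher in H-Ras and 4.05% higher in c-Myc tumors. Arg1, arginase 1, stood at 10.11, 8.10, 7.48 and 8.25 in c-Myc tumors and at 12.77, 13.69, 13.09, 13.81 and 12.82 in H-Ras tumors (difference -4.75, SE 0.52, adjusted p = 0.002, held in all 9 fits), and normal gland averaged 2.59. It was the only one called of 20 macrophage markers, whose list level lay between 8.09 and 9.06 in c-Myc and between 6.84 and 9.44 in H-Ras tumors. Of 13 genes of antigen presentation the class I genes B2m, at 14.02, 12.45, 12.13 and 11.73 against 14.53 to 14.99 (difference -2.27, adjusted p = 0.0176), and H2-D1, at -1.99 (adjusted p = 0.0208), were called, with the median of the list at -1.30. c-Myc 1 was the highest c-Myc tumor for both. Both calls were lost without H-Ras 2 or c-Myc 3, and H2-D1 also without H-Ras 3 or H-Ras 5, and H2-D1 may share probes with other class I genes, of which H2-K1 differed by -2.0 (adjusted p = 0.0576), with its other probe sets at -2.08 to -3.68 and called. The immunoproteasome genes Psmb8 and Psmb9 both differed by -3.14 (adjusted p = 0.0805 and 0.0776) and were at 11.65 and 10.86 in c-Myc 1 but at most 9.05 in the other c-Myc tumors. Of 20 interferon response genes 0 were called by limma (1 at an unadjusted p under 0.05), and the list level was 8.99, 7.31, 4.35 and 4.19 in c-Myc and 5.29, 4.62, 5.24, 9.55 and 8.32 in H-Ras tumors. Of 7 T cell, 4 B and plasma cell and 6 neutrophil markers limma called 0, with 0, 0 and 1 at an unadjusted p under 0.05. The chaperone Dnajb9 was the only one called of 26 genes of the unfolded protein response, at -1.78 (adjusted p = 0.00767, held in all 9 fits).

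**Figure D4:**
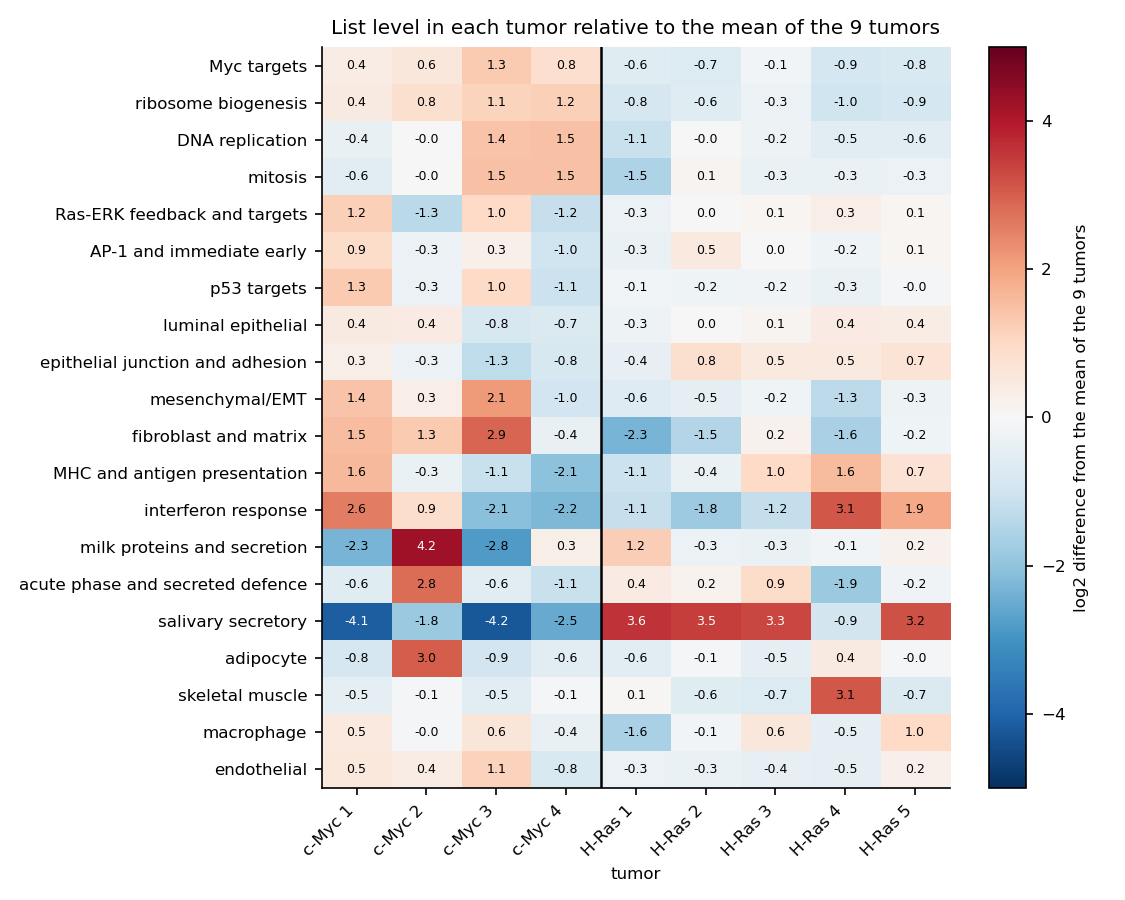
Level of 20 gene lists (mean over members) in each of the 9 tumors, shown as the log2 difference from the mean of the 9 tumors; red is above and blue below, and a line separates c-Myc from H-Ras tumors. Myc target and ribosome biogenesis lists separate the models, the milk protein list is highest in c-Myc 2, at a level of 11.74, and the salivary list in H-Ras 4, at 7.37, is well below the other H-Ras tumors.

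Milk genes varied more within the c-Myc model than between the models. Csn2, beta-casein, stood at 2.93, 15.12, 2.23 and 12.90 in c-Myc tumors and at 12.69, 8.82, 8.80, 8.09 and 12.07 in H-Ras tumors (difference -1.80, SE 2.75, adjusted p = 0.728), and normal gland averaged 15.38 ± 0.12 (SD, n = 5). Wap, whey acidic protein, stood at 3.54, 14.63, 3.92 and 7.76 against 11.28, 6.64, 6.81, 4.42 and 9.49 (difference -0.26, SE 2.32). c-Myc 2 was near the gland, c-Myc 1 and 3 were near the floor and H-Ras tumors lay between. The widest ranges among c-Myc tumors were those of Csn2, Csn1s2a, Csn1s1, the acute phase gene Saa1, at 13.98 in c-Myc 2 and 2.28 to 4.04 in its model mates, and Scgb2b27, at 13.87 in c-Myc 2. Lalba, the milk subunit of lactose synthase, was at 12.83 in c-Myc 2, 7.18 in c-Myc 4 and 13.75 in H-Ras 4, and between 2.10 and 2.13 in the other 6 tumors. The milk list had Mfge8 as its 1 call among 20, beside 4.05% of all genes called higher in c-Myc tumors. c-Myc 2 also had the highest adipocyte list level, 7.34 against 3.35 to 4.74 in the other 8 tumors, and H-Ras 4 the highest skeletal muscle level, 6.58 against 2.76 to 3.56. The part of these tissues in the results was not tested. The ribosome biogenesis and salivary counts without these tumors are 12 of 32 without c-Myc 2, 14 without H-Ras 4, and, for the salivary list, 7 and 6 of 16.

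Set beside the normal gland, the called genes split unevenly. Of the 378 genes higher in c-Myc tumors the gland mean lay below both models for 151, between them for 191 and above both for 36. Of the 305 genes higher in H-Ras tumors it lay below both for 70, between for 184 and above both for 51. The gland mean was nearer to the c-Myc than to the H-Ras mean for 27.8% of the former and 53.1% of the latter. MMTV-Wnt1 tumors were nearer to c-Myc for 49.5% of genes higher in c-Myc and for 77.4% of genes higher in H-Ras, and MMTV-Her2/neu tumors for 33.3% and 24.6%. MMTV-PymT tumors were nearer to c-Myc for 46% and 36.4%. These shares use means of 4 to 6 arrays each and were not tested.

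The study names Bmi1, Xiap, Bmpr2 and Ptpn12 among its potential targets of miR-494. These 4 genes differed by -0.92, -0.50, -0.67 and -0.49. Limma called 0 of the 4 (adjusted p from 0.307 to 0.566, and 0 with an unadjusted p under 0.05), beside 7.32% of all genes called. The study chose these genes on these samples among others. It found miR-494 associated with the c-Myc model. In its mammary tumor cell line with raised miR-494, Xiap RNA (there named Birc4) was reduced. Bmi1 and Ptpn12 transcripts did not detectably change in those cells.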

How the data were processed

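Total RNA of each tumor or gland was labelled and hybridised by the authors to 1 Affymetrix Mouse Genome 430A 2.0 array, scanned with GCOS software. The deposited log2 values were made by the authors with GC-RMA in Partek, and probe sets with too few MAS5 present or marginal calls were removed by them; software versions and scan dates are not given in the sources used here. The table held 18586 probe sets on 46 arrays, with values from 1.7 to 15.98, and was used as deposited. Probe sets were named from the platform annotation (16962 with 1 gene, 569 with several, 1055 with none), and 16941 matched RefSeq. Each gene was represented by 1 probe set, chosen by its highest mean over all arrays, and probe sets above 4 in at least 3 of the 46 arrays were kept. c-Myc and H-Ras tumors were compared with limma 3.58.1 in R 4.3.3 (lmFit and eBayes, 9 arrays, no covariates), with Benjamini-Hochberg adjustment over 9329 genes and a threshold of 0.05. Other probe sets of a gene were judged in a separate limma fit, adjusted over all single-gene probe sets kept. In that fit the probe sets used for Casp1 and Ctps were not called, with adjusted p-values of 0.0516 and 0.0509. The fit was tested on simulated data with independent normal noise and the gene means and variances of these 9 arrays. The simulation lacked correlation between genes and single-tumor outliers, so it does not speak to the stability of the calls. Each array is a separate tumor, and the number of arrays limits the precision. The alternatives changed the normalization, the arrays fitted, the filter, the probe set, array weights, a replicate block, the test and each tumor left out. The comparison, gene lists and named genes were chosen with earlier results of these data known. Named genes were a fixed set of Myc, Ras, mammary and stromal genes, the 12 called, non-overlapping genes that differed most each way, up to 3 called members of each list per direction, and the 5 of widest range in each model; further called members of a list, and other probe sets, were named after their values were seen. The transgene product H-Ras and a few other genes are not reported here.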

Additional observations from a re-analysis of the deposited data

Results flagged for a closer look

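Single tumors were set off from the others of their model for 44 of 364 groups of values checked, or 12.1%. The groups share the same tumors, and a chance rate for them was not estimated. Each of these tumors had a gap to its nearest neighbour that took up most of the range of its group.

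H-Ras 4 was far from the other H-Ras tumors for secretory genes, with levels of 8.14 for Cst10, 9.73 for Bpifa2, 6.05 for Prpmp5, 9.31 for Pigr and 6.40 for Oit1, all below them, and with a salivary list level of 7.37. It was also below them for Gdf5 at 2.52, Ctps at 6.52, Hspe1 at 10.68 and Col5a1 at 3.97. It lay above them for Casp1 at 12.27, Krt19 at 4.16, Gsto1 at 9.89 and the skeletal muscle list at 6.58.

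H-Ras 1 was below its model mates for Gart at 5.5, Birc5 at 6.45, Cks2 at 8.60, the mitosis list at 6.67, the junction list at 9.10 and the Ras-ERK cascade list at 7.37. It lay above them for Mycn at 4.73, Ppan at 8.70, Ereg at 5.33, Ccnb1ip1 at 6.02 and the B and plasma cell list at 5.13. H-Ras 3 was high for Fbl at 11.12, Rrp12 at 6.59, Mnt at 8.03 and Dnajb9 at 11.17. H-Ras 2 was flagged for Prtn3 at 2.35 against 2.55 to 2.56 in the other H-Ras tumors, all near the floor, where values carry no order. H-Ras 5 was high for the endothelial list at 5.26.

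c-Myc 2 was above its model mates for Max at 6.55, Ereg at 4.52, Cldn10 at 8.24, Lrrc26 at 5.09, the glutamine and amino acid transport list at 10.32, the acute phase list at 9.83, the adipocyte list at 7.34 and the erythroid list at 7.41, and below them for Nr4a1 at 7.92. c-Myc 4 was low for Mxd4 at 8.58 and high for Bpifa2 at 9.69. c-Myc 3 was low for Cldn1 at 7.12, and c-Myc 1 was low for Gstm2 at 3.45.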

How the results depend on the processing

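Of 142 named genes 99 were called, and 0 of these changed direction under any alternative run, while 50 lost the call in at least 1 fit that left out a tumor. For called genes without overlap between the models, leaving out a tumor could not change the direction. The median of 0 of 49 lists moved by more than the spread between tumors, but that spread was wide, so smaller shifts pass unseen. The level of the Ras-ERK feedback list ranged over 2.53 among c-Myc tumors, and its median changed sign without c-Myc 2 or c-Myc 4. The genes higher in c-Myc and in H-Ras tumors numbered 856 and 675 with all 46 arrays in 1 fit, and 1020 and 806 with the 5 MMTV models and normal gland. Array weights gave 464 and 504, and the t-test of the methods gave 269 and 202 after adjustment, or 180 and 120 at an unadjusted p under 0.001. Leaving out each tumor in turn gave 160 to 341 and 136 to 380. The other normalizations, filters and probe set rules kept both counts within 1.5 times. Replicate numbers were shared by the labels without a stated pairing, and same-numbered tumors deviated together with correlations of -0.17, -0.007, 0.127 and -0.0054, where 1 of 4 c-Myc tumors correlated best with its own number. With the replicate block limma called 0 and 0 genes, with 1031 and 799 at an unadjusted p under 0.05 and with fewer residual degrees of freedom, since the block takes 4 of the 7. Among the lists in which limma called 0 members, the t-test of the methods called 1 gene of oxidative phosphorylation and 0 of the mesenchymal, lipid, glycolysis, interferon, T cell, B cell and neutrophil lists.

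Of the named genes not called, 11 were called with all 46 arrays and 12 with the 5 MMTV models and gland, where 7 and 4 called genes lost the call. The 12 were Mnt, Mlxip, Ncl, Dusp6, Ccnd2, Psmb8, Psmb9, H2-K1, Scgb2b27, Mucl2, Chia1 and Smr3a. All of them except Ccnd2 were among the 11. The genes that changed direction were not called. Array weights gave 0.02 for Mycn and 0.19 for Ereg, the mean of the probe sets gave 0.51 for Ccnd1, and the replicate block gave 0.18 for Wap. Leaving out each tumor in turn, the difference ran from -0.50 to 0.14 for Mycn, -0.47 to 0.03 for Mxd4, -0.83 to 0.30 for Etv4, -0.67 to 0.30 for Ereg, -0.83 to 0.47 for Ccnd1, -0.73 to 1.32 for Krt5, -4.07 to 0.22 for Csn2, -2.65 to 1.04 for Wap, -1.05 to 2.93 for Csn1s1 and -0.64 to 3.94 for Lalba. The cause was not tested. Values near the GC-RMA floor carry no order, so differences against a group at the floor depend on it.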
